A study of Arabidopsis thaliana with 8 samples.

Results

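Genes whose transcripts stay level along an organ serve as internal standards when other genes are measured, and 85 of 22746 Arabidopsis probe sets (0.374%) were both bright and steady along a root dissected into 4 zones. A probe set, a group of short probes for 1 transcript on an Affymetrix array, was counted here when its mean signal over the 8 arrays was at least 1000 and its highest array was at most 1.6 times its lowest. The members were chosen by the same 8 signals that are described below, so their steadiness is a description and carries no test. Of the 85, 26 were annotated to 1 gene, 5 to several genes and 54 to none, and only the 26 are named. They are called the steady genes here. The steady probe sets make up 4.61% of the 1842 probe sets with a mean signal of at least 1000, and the limit on the ratio alone was met by 1.79% of all probe sets.

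The samples were root sections of Arabidopsis thaliana, ecotype Columbia, with 2 samples in each of zones 1, 2, 3 and 4, which the labels also call developmental stages. Growth was for 5 days on MS, a standard medium with full salts, followed by 3 hours on sulfur-deficient medium for all of them, so no sample with full sulfur was analysed here and steadiness under other supplies of sulfur was not measured. The labels give neither the position of each zone nor the plants behind each replicate, so p-values measure only the spread between samples, which may be technical. All are sections of whole root, in which fewer cells of a type and less RNA per cell cannot be told apart. The signals are MAS5 intensities on a linear scale, with trimmed means that differed between arrays by less than 1 unit when deposited. Array medians ran from 57.8 to 79.6 without control probe sets. For the GAPDH control the 3' signal was 13.2 to 64.3 times the 5' signal. The parts of RNA integrity and of the amplification used for labelling in this ratio were not tested. Nor was the part of the ratio in the results. None of 8 root marker genes and 1 of 6 shoot marker genes had a named probe set. That gene, RCA, which encodes Rubisco activase, had signals from 5.81 to 105.9.

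A reference gene is useful in a root only if dividing, elongating and mature cells carry similar shares of its transcript. Genes of this kind often encode parts of machinery that cells run all the time. Respiration, glycolysis, vesicle coats, protein turnover and RNA synthesis are named here with the members known, so a match to them supports nothing. In mitochondria, the citric acid cycle feeds electrons to the respiratory complexes, complex III passes them through cytochrome c1 to cytochrome c, and complex IV hands them to oxygen.

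**Figure D1:**
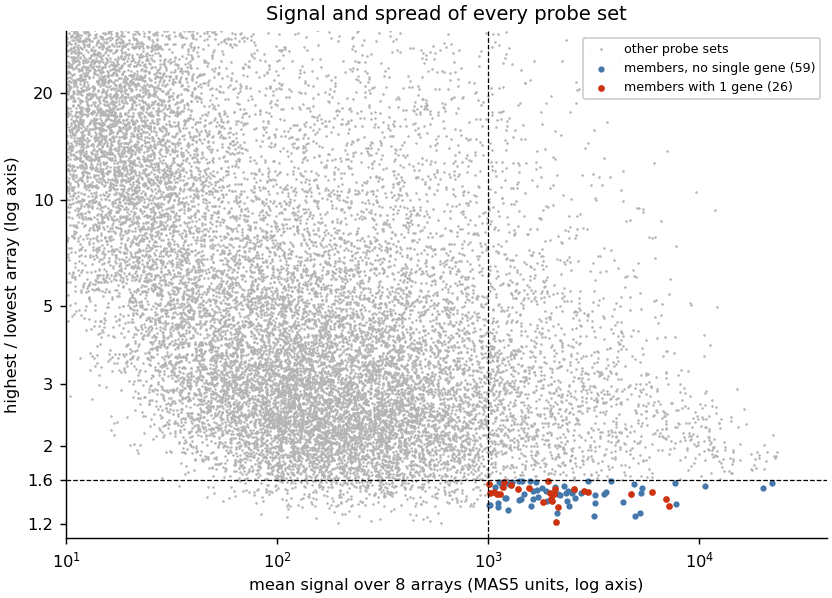
Mean signal over the 8 arrays (MAS5 units, log axis) against the ratio of the highest to the lowest array (log axis) for the probe sets, 1 point each, cropped to the range drawn. The dashed lines are the limits of 1000 and 1.6, and the 85 steady probe sets in the lower right corner comprise 26 with 1 gene and 59 with several or none.

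Genes of mitochondrial energy metabolism, grouped with the members known, made up 6 of the 26 named genes. The share of such genes over all probe sets was not taken. The steadiest of the 6 was AT5G40810, which encodes a cytochrome c1 of complex III. Its signals were 1939 and 1823 in zone 1, 2226 and 2141 in zone 2, 2156 and 2225 in zone 3, and 2047 and 2127 in zone 4. The highest array was 1.22 times the lowest, and the 2 zone 1 arrays lay below the other 6. MPPBETA encodes the beta subunit of the mitochondrial processing peptidase, which in plants is built into complex III and cuts targeting peptides from imported proteins. It had signals of 7312 and 6112 in zone 1, 8296 and 6121 in zone 2, 7991 and 7653 in zone 3, and 7139.7 and 6856 in zone 4, and a ratio of 1.36. Both zone 3 arrays were above those of zones 1 and 4, while the zone 2 replicates spanned nearly the whole range.

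Subunits of complexes I and IV were less even. AT2G20360, a subunit of the NADH dehydrogenase complex I, had 2199 and 2154 in zone 1, 2417 and 2208 in zone 2, 2903 and 3260.2 in zone 3, and 2305 and 2842 in zone 4. Its zone 3 arrays were the highest and its zone 1 arrays the lowest of the 8, with a ratio of 1.51. For AT4G21105, a subunit of cytochrome c oxidase (complex IV), the signals were 1928 and 1668 in zone 1, 1680.2 and 2211 in zone 2, 1933 and 2065 in zone 3, and 2453 and 1807 in zone 4. Here the highest array was 1 of zone 4 and the lowest 1 of zone 1, but in zones 2 and 4 the replicates differed more than the zone means did.

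The citric acid cycle supplied a pair of members. AT5G55070 encodes the E2 subunit of 2-oxoglutarate dehydrogenase and read 2309.9 and 2366 in zone 1, 2416 and 1970.3 in zone 2, 2073 and 2380.0 in zone 3, and 1794 and 1800.4 in zone 4. Both zone 4 arrays were below the rest, and the ratio was 1.35. AT5G08300, the alpha subunit of succinyl-CoA ligase, which makes nucleotide triphosphate in the next step, read 5524 and 4178 in zone 1, 4998 and 4639 in zone 2, 5725 and 4309 in zone 3, and 4602 and 3917 in zone 4, with replicates of zones 1 and 3 far apart and a ratio of 1.46. A probe set annotated to AT2G07751 is given without a role and is not counted with the genes of energy metabolism. It belongs to a type of probe set that can match several transcripts, so its source is uncertain. Its signals were 2357 and 2404 in zone 1, 1823 and 1752 in zone 2, 1771 and 2189 in zone 3, and 1722 and 1998 in zone 4, both zone 1 arrays being above the other 6.

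**Figure D2:**
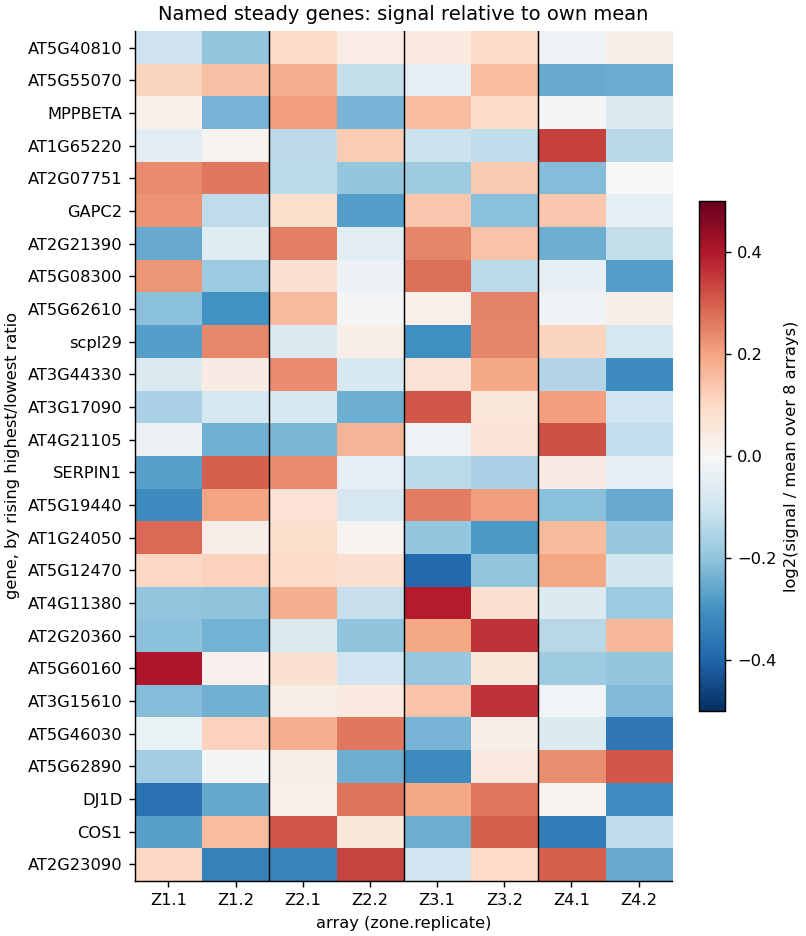
Signal of the 26 named steady genes on each of the 8 arrays, as log2 of the signal over the gene's own mean, with genes in order of rising ratio of highest to lowest array from 1.22 at the top to 1.6 at the bottom. Columns are arrays, written as zone and replicate, and black lines part the zones. Red is above and blue below the gene's mean, and no column is of 1 colour.

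Of the sugar metabolism genes only GAPC2, a cytosolic glyceraldehyde-3-phosphate dehydrogenase of glycolysis and a reference gene in common use, was among the 26. It had signals of 8114 and 6356 in zone 1, 7366 and 5726 in zone 2, 7622 and 5998 in zone 3, and 7618 and 6706 in zone 4, a ratio of 1.42 and zone means within 1.11 times of each other. In each zone the replicate 1 array was above the replicate 2 array, and the replicates of each zone differed by more than the zone means did. AT5G19440, of a reductase family with an NAD(P)-binding fold, had 4778 and 6814 in zone 1, 6245 and 5609 in zone 2, 7094 and 6873 in zone 3, and 5143 and 4984 in zone 4. Its zone 3 arrays were the highest and its zone 4 mean was the lowest, and its zone means differed by a factor of 1.38. COS1 encodes lumazine synthase of riboflavin synthesis, and read 985 and 1321 in zone 1, 1475 and 1234 in zone 2, 1002 and 1459 in zone 3, and 934 and 1088 in zone 4. The replicates of zone 3 differed by more than any zone means did, and the ratio was 1.58. DJ1D, a DJ-1 family gene, had 777 and 842 in zone 1, 1024 and 1213 in zone 2, 1145 and 1211 in zone 3, and 1016 and 810.4 in zone 4. Its zone means spread the most among the named genes, with zone 3 at 1.46 times zone 1, and its mean of 1005 was the lowest of the 85.

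Vesicle coats also contributed a pair. AT2G21390, an alpha subunit of the coatomer that coats vesicles of the Golgi, had signals of 1661 and 1896 in zone 1, 2356 and 1901 in zone 2, 2346 and 2183 in zone 3, and 1669.6 and 1824 in zone 4 (ratio 1.42). AT4G11380, a beta-adaptin of clathrin-coated vesicles, had 1210.2 and 1208 in zone 1, 1569 and 1279.5 in zone 2, 1821 and 1461 in zone 3, and 1322 and 1223 in zone 4 (ratio 1.51). Both had their highest mean in zone 3. Across the 8 arrays the ratio of one to the other stayed within a 1.24-fold range. Over all 325 pairs of named genes this range ran from 1.2-fold to 2.45-fold. Pairs from different groups were as close, such as AT5G12470 with AT1G24050 at 1.23-fold. The rule itself keeps such ratios small, and a link between the coat genes was not tested.

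Proteases, an inhibitor and a phosphatase formed another group. SERPIN1, a serpin that inhibits cysteine proteases and a metacaspase, had 881 and 1308 in zone 1, 1253 and 1029 in zone 2, 969.6 and 951 in zone 3, and 1097 and 1029 in zone 4, the lowest and the highest of the 8 both being zone 1 arrays. The serine carboxypeptidase-like gene scpl29 read 934 and 1338 in zone 1, 1079.5 and 1156 in zone 2, 915 and 1340.5 in zone 3, and 1221 and 1068 in zone 4. Its zone means were the closest of all 85, within 1.02 times of each other, while single arrays differed by 1.46. AT5G60160, an aminopeptidase, read 2727 and 2091 in zone 1, 2175 and 1922 in zone 2, 1810.4 and 2146 in zone 3, and 1821 and 1801 in zone 4, and a single zone 1 array stood above the other 7. AT3G17090, of the protein phosphatase 2C family, read 907 and 956 in zone 1, 960.3 and 856 in zone 2, 1259 and 1059 in zone 3, and 1167 and 947 in zone 4. Zones 3 and 4 overlapped, and both zone means were above those of zones 1 and 2.

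Genes linked to RNA and its regulation, with a WD40 repeat gene beside them, had means from 1093 to 2979. AT5G62610, a transcription factor of the basic helix-loop-helix family, had 946 and 886 in zone 1, 1218 and 1087 in zone 2, 1113 and 1296 in zone 3, and 1078 and 1118 in zone 4, with both zone 1 arrays below the rest. AT5G46030, related to the transcription elongation factor ELF1, read 1145 and 1271 in zone 1, 1326 and 1406 in zone 2, 998 and 1198 in zone 3, and 1119 and 915 in zone 4, with both zone 2 arrays on top. AT1G24050, which carries an Lsm domain of RNA-processing proteins, read 3628 and 3048 in zone 1, 3165 and 3009 in zone 2, 2608 and 2439 in zone 3, and 3323 and 2611 in zone 4, with zone 3 at the bottom. AT3G15610, of the WD40 repeat family, read 1339 and 1316 in zone 1, 1588 and 1606 in zone 2, 1715 and 1998 in zone 3, and 1537 and 1333 in zone 4, with zone 3 at the top. In these 4 genes the zone that stood apart was a different one or went a different way.

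A plastid protein and a transporter were among the rest. AT5G12470, related to the plastid envelope protein RETICULATA, had 3054 and 3074 in zone 1, 3025 and 2998 in zone 2, 2172 and 2475 in zone 3, and 3251 and 2668 in zone 4. Its zone 1 and zone 2 arrays lay close together, and both zone 3 arrays were below the other 6. AT5G62890, a nucleobase-ascorbate transporter, had 1128 and 1265 in zone 1, 1304 and 1075 in zone 2, 1019.7 and 1316 in zone 3, and 1497 and 1580.4 in zone 4, with both zone 4 arrays on top. The last 3 genes are given without a role. AT1G65220 had 1754 and 1843 in zone 1, 1661 and 1983 in zone 2, 1686 and 1664 in zone 3, and 2303 and 1653 in zone 4, where 1 zone 4 array stood above the other 7. AT3G44330 read 1940.1 and 2102 in zone 1, 2407 and 1930.5 in zone 2, 2139 and 2329 in zone 3, and 1847 and 1641 in zone 4, with zone 4 lowest. AT2G23090 read 2070.2 and 1523 in zone 1, 1527 and 2433 in zone 2, 1804 and 2066 in zone 3, and 2367 and 1616 in zone 4 and was the least steady of the 85 by the rule, with replicates in every zone that differed by more than any zone means did.

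Small shifts between zones remained inside the limit of 1.6. In 33 of the 85 steady probe sets (38.8%), 13 of them named, both arrays of 1 zone lay above or below the other 6, against 48.3% of all probe sets, and nothing is read from the share because the rule used these signals. For zones 1 to 4 in turn, both arrays lay above the other 6 in 3, 3, 8 and 1 of the 85. They lay below in 6, 3, 2 and 9, and a probe set could count for more than 1 zone. For this measure the share for each zone over all probe sets was not taken. The highest zone mean was in zone 1 for 16, in zone 2 for 24, in zone 3 for 32 and in zone 4 for 13. For the highest mean, too, the share for each zone over all probe sets was not taken, so nothing is read from these counts. The lowest zone mean was in zone 1 for 23, in zone 2 for 15, in zone 3 for 13 and in zone 4 for 34. Over the 13647 probe sets tested, which include dimmer ones, the shares lowest in zones 1 to 4 were 36.9%, 12.8%, 35.2% and 15.1%. Zone 4 replicate 2 alone held the lowest signal of 20 of the 85, which deviated together by -0.11 there on the log2 scale. The part of array scale in the zone 4 count was not tested. Zone means differed by a median factor of 1.25 (range 1.02 to 1.49), and in 57 of the 85 by at most 1.3. The SD between zone means had a median of 0.15 on the log2 scale and the SD within zones a median of 0.16. Over the other 1757 bright probe sets these medians were 0.49 and 0.33.

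Not all of the members could be named, and the brightest could not. A probe set annotated to 4 genes had the highest mean, 22032, with a ratio of 1.57, and another annotated to 4 genes had 19962. The 54 without an annotated gene had means from 1005 to 10631 and ratios from 1.27 to 1.6. The steadiest of them had a ratio of 1.27, next after AT5G40810. Signals of different probe sets are not compared as amounts of transcript, since each probe set has its own brightness.

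At the limits the members passed into their neighbours without a gap. The 3 members with the largest ratios had 1.597 (AT2G23090), 1.597 and 1.596, and the 3 bright probe sets just outside had 1.601, 1.601 and 1.601, the last being CUL4, which encodes the scaffold of a ubiquitin ligase. The dimmest members had means of 1005 (DJ1D), 1005 and 1014 (AT3G17090). The brightest probe sets that met the ratio but not the mean had 965, 957 and 910.3, the last of them AT5G10730.

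Partner subunits and paralogs of the steady genes were set beside them. Bright partners are outside the rule only because their ratio exceeded 1.6, so a wider spread in them restates the rule. Lists of the respiratory complexes, ATP synthase and the citric acid cycle were drawn up after the names of the steady genes were known, so the share of members in them supports nothing. Of 30 such genes with a named probe set, 25 had a mean of at least 1000 and 6 were steady by the rule. The rule was met by 4.61% of the 1842 bright probe sets. The median ratio was 2.09 over the 30 and 2.86 over all 1842 bright probe sets. These medians are not like for like, since the 30 include dimmer genes and were listed with the 6 members known. Of the 24 that were not steady, 7 differed between zones by limma's moderated F-test at an adjusted p under 0.05, a test that called 26.9% of the 13647 probe sets tested (39.5% passed in at least 1 contrast of 2 zones, with a 2-fold limit). The share called by the F-test, 7 of 24, was near the 26.9% of all tested. These shares are not like for like, since steady genes were taken out of the 24 but not out of all tested. All 7 had their lowest mean in zone 1, as did 47.8% of all probe sets the test called and 36.9% of those tested.

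Both steady genes of the citric acid cycle have a paralog with a named probe set. AT4G26910, the second gene for the E2 subunit of 2-oxoglutarate dehydrogenase, had 1861 and 2393 in zone 1, 3296 and 3451 in zone 2, 4717 and 5945 in zone 3, and 2524 and 2881 in zone 4, against the nearly level AT5G55070. Zone means were 2127 ± 376 in zone 1 and 5331 ± 869 in zone 3 (SD, n = 2). It was higher in zone 3 than in zone 1 by 1.33 on the log2 scale (SE 0.28; limma F-test over the zones, adjusted p = 0.023). The call was lost when either zone 3 array (0.062 and 0.11) or zone 4 replicate 1 (0.052) was left out. AT5G23250, the second alpha subunit gene of succinyl-CoA ligase, read 2359 and 2537 in zone 1, 2073 and 1929.8 in zone 2, 1606 and 1221 in zone 3, and 1789.8 and 1270.3 in zone 4, with both zone 1 arrays on top and an adjusted p of 0.16 in limma, which missed the threshold. The difference between the paralogs was not tested. The beta subunit gene AT2G20420 had a ratio of 2.56 (limma, adjusted p = 0.23). Upstream in the cycle, the isocitrate dehydrogenase gene IDH-V had 2026 and 1795 in zone 1, 3791 and 3770.3 in zone 2, 6087 and 5055 in zone 3, and 3156 and 3711 in zone 4, a rise of 1.54 from zone 1 to zone 3 on the log2 scale (SE 0.26; limma F-test, adjusted p = 0.011, and 0.0502 without zone 3 replicate 1). IDH-VI, of the same enzyme, had a difference of 1.34 (SE 0.31; adjusted p = 0.042 in limma) and lost the call when any 1 array was left out (0.054 to 0.16). AT1G54220, an E2 gene of pyruvate dehydrogenase, had 1.34 (SE 0.34; adjusted p = 0.046 in limma) and likewise lost it in each case (0.052 to 0.12), as well as with a replicate block (0.065), as IDH-VI did (0.053). A prior variance without trend ended the calls of AT4G26910, AT1G54220, IDH-VI, AT5G11770 and SDH2-1, with adjusted p-values from 0.053 to 0.089 in limma. With arrays centred on their median IDH-VI and SDH2-1 stood at 0.085 and 0.055, and AT1G54220 stood at 0.061 with no filter and at 0.064 with arrays centred on the 85 steady probe sets.

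**Figure D3:**
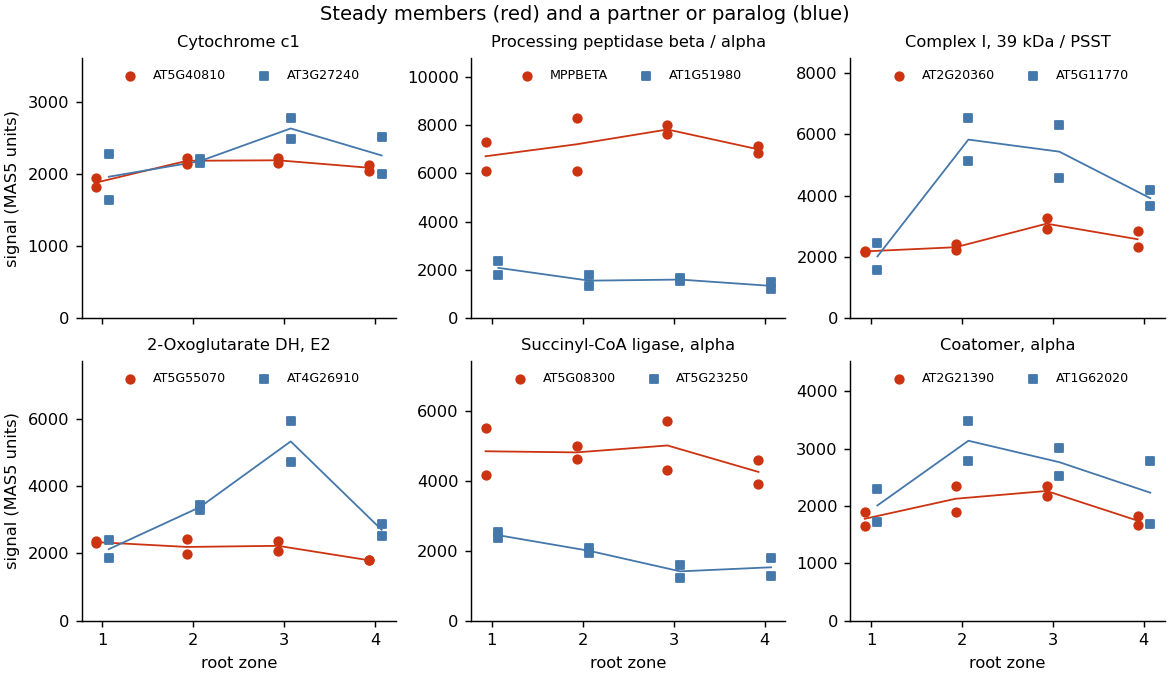
Signals (MAS5 units, linear axis from 0) of 6 steady genes (red circles) and a partner subunit or paralog of each (blue squares) in zones 1 to 4, 1 point per array, with lines through the zone means. Zone means of the red genes differ by at most 1.42 times, and AT4G26910 and AT5G11770 are higher in zones 2 and 3 than in zone 1; the heights of different probe sets are not comparable.

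In the respiratory chain, AT3G27240, the other cytochrome c1 gene, had 1640.0 and 2284 in zone 1, 2206 and 2150.2 in zone 2, 2777 and 2489 in zone 3, and 1996 and 2519 in zone 4 and a ratio of 1.69, just beyond the limit (limma F-test, adjusted p = 0.63). AT1G51980, an alpha subunit gene of the processing peptidase, had a ratio of 2.01 (limma, adjusted p = 0.39). In complex I, AT5G11770, the PSST subunit, read 1563 and 2464 in zone 1, 5124 and 6528 in zone 2, 4575 and 6289 in zone 3, and 3643 and 4181 in zone 4, with zone 1 lowest on both arrays and a log2 difference of 1.45 between zones 3 and 1 (SE 0.31; limma F-test, adjusted p = 0.014, and 0.068 without zone 1 replicate 1). Its neighbour AT4G02580 had a ratio of 2.02 (limma, adjusted p = 0.79). Complex II had no steady gene among 4. SDH2-1, its iron-sulfur subunit, read 1026 and 1432 in zone 1, 2674 and 2496 in zone 2, 4121 and 2979 in zone 3, and 2176 and 3149.9 in zone 4 (limma F-test, adjusted p = 0.022, and 0.1 and 0.069 without zone 1 replicate 1 or zone 3 replicate 1), and SDH1-2, a dim flavoprotein gene, had an adjusted p of 0.016 in limma (0.068 without zone 3 replicate 1). Cytochrome c itself, CYTC-1, read 9897 and 8063 in zone 1, 11459.7 and 16902 in zone 2, 12655 and 14312 in zone 3, and 12319.8 and 8475 in zone 4, a ratio of 2.1 (limma, adjusted p = 0.25), and CYTC-2 had a ratio of 4.57 (adjusted p = 0.083 in limma, and 0.027 without zone 1 replicate 2). None of the 4 genes tested for cytochrome c and complex IV passed in limma, with 2 at an unadjusted p under 0.05. The 1 named ATP synthase gene, AT5G47030, had a ratio of 3.73 (limma, adjusted p = 0.16, and 0.033 without zone 1 replicate 2).

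Of 7 coatomer and adaptin genes 2 were steady, and 0 of the other 5 passed the limma F-test, none of them at an unadjusted p under 0.05 either. AT1G62020, the other alpha coatomer gene, read 2294 and 1730.3 in zone 1, 2791 and 3489.8 in zone 2, 3010.3 and 2523 in zone 3, and 2787 and 1681 in zone 4, a ratio of 2.08. Of 5 nucleobase-ascorbate transporter genes AT5G62890 alone had a mean above 1000, and AT2G34190 had 1389 and 495 in zone 1, 421 and 202 in zone 2, 182 and 154 in zone 3, and 564 and 333 in zone 4 (limma F-test, adjusted p = 0.035), a fall of 2.31 on the log2 scale from zone 1 to zone 3 that lost its call when zone 1 replicate 1 (0.085), either zone 3 array (0.09 and 0.1) or zone 4 replicate 1 (0.054) was left out, with quantile normalization (0.055) and with a prior variance without trend (0.084). Of the DJ-1 family, YLS5 had a ratio of 1.65, and of the protein phosphatase 2C clade, the 3 named relatives of AT3G17090 had 1.64 to 2.44. None of these 4 passed in limma, and 0 had an unadjusted p under 0.05. GAPC2 was the only GAPDH gene with a named probe set.

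Reference genes in common use were listed apart from the rule. Of 37 such loci 11 had a named probe set, and of these 11 only GAPC2 was among the 85. Another 7 loci were found only on probe sets annotated to several genes, which were not looked up. Whether any of them is among the 5 members of that kind was not checked. AT4G34270, a TIP41-like gene, had 295 and 376 in zone 1, 275 and 321 in zone 2, 366 and 343 in zone 3, and 313 and 241 in zone 4, a ratio of 1.56 at a mean of 316 that lies under the limit. PEX4, a ubiquitin-conjugating enzyme gene, had 145 and 131 in zone 1, 141 and 212 in zone 2, 201 and 217 in zone 3, and 149 and 131 in zone 4 (ratio 1.65), and AT4G33380 had a ratio of 1.66 at a mean of 438. The next were AT4G26410, AT2G32170, AT5G46630, which encodes a clathrin adaptor subunit, and AT5G15710, an F-box gene, at ratios of 1.95, 2.08, 2.18 and 2.22. AT2G28390, of the SAND family, had a ratio of 2.86, with a single zone 2 array at 124 beside 208.7 to 354 on the other 7. The pentatricopeptide repeat gene AT5G55840 had a ratio of 4.15 but a mean of 31.5, below the filter for testing.

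GAPC2, a member by the rule, was not among the 9 reference genes tested, while all probe sets tested include the members. The beta-tubulin gene TUB6 was the 1 of the 9 tested that differed between zones, against 26.9% of all probe sets tested. It read 567 and 829 in zone 1, 1405 and 1511 in zone 2, 1853 and 2147 in zone 3, and 1606 and 1102 in zone 4, so that both zone 1 arrays were below the other 6. Zone 3 was higher than zone 1 by 1.54 on the log2 scale (SE 0.32; limma F-test over the zones, adjusted p = 0.024). Leaving out 1 array ended the call in 3 cases, for zone 1 replicate 1 (0.094) and for either zone 3 array (0.062 and 0.067), and a prior variance without trend ended it too (0.063). The other 8 had adjusted p-values from 0.27 to 0.79 in limma, which does not show that they were level.

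**Figure D4:**
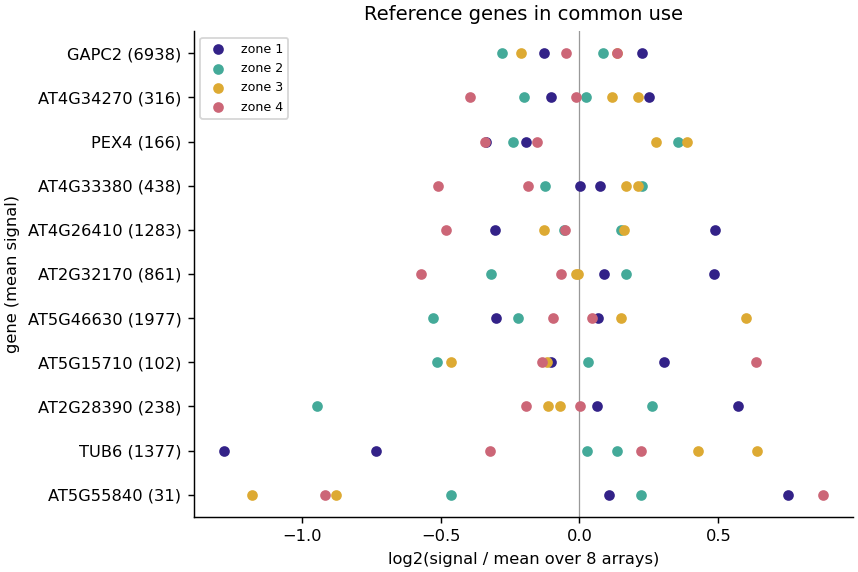
Signals of 11 reference genes in common use on the 8 arrays, as log2 of the signal over the gene's own mean, 1 point per array, coloured by zone, with the mean signal in brackets. Genes run from GAPC2 at the top (ratio 1.42) to AT5G55840 at the bottom (ratio 4.15), and the zone 1 points of TUB6 lie at the far left of its row.

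The array's own control probe sets for reference transcripts, which the rule leaves out, are given here by their 3' members. The 3' probe set for actin had a mean of 5464 and a ratio of 1.53. The 3' probe sets for GAPDH and ubiquitin ran from 4341 to 14210 and from 4010 to 16987, ratios of 3.27 and 4.24, with the lowest value in zone 1 replicate 2 for both. The GAPC2 probe set had its own lowest signal on zone 2 replicate 2. The 3'/5' ratios of the actin and ubiquitin controls ran from 44.8 to 268.7 and from 6.88 to 15.1. How these ratios moved with any steady gene was not tested.

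The values of a second measure of spread do not depend on how arrays are scaled, but the 85 probe sets behind it were chosen on the deposited scale. The measure uses the same 8 signals as the rule, so it is no separate check. For each steady probe set the SD over the 8 arrays of its log2 ratio to every other steady probe set was taken and averaged. AT5G40810 had the lowest value of the 85, 0.209, and the highest was 0.341. AT3G44330, MPPBETA and AT5G55070 followed among named genes with 0.224, 0.228 and 0.235, while scpl29 and AT2G07751, with ratios under 1.5, had 0.286 and 0.279. The order differed from that by ratio: AT3G44330 was at rank 38 of the 85 by ratio and at rank 14 by this measure, and AT1G65220 at ranks 18 and 42. On this measure AT4G34270 and AT4G33380 both stood at 0.265, near the members' median of 0.260, and TUB6 at 0.640. Among the 325 pairs of named genes the ratio of AT5G62610 to AT5G40810 was the most constant, with an SD of 0.09 on the log2 scale and a range of 1.2-fold, and that of COS1 to AT2G23090 the least, with an SD of 0.44 and a range of 2.45-fold.

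Which probe sets met the rule depended on the scale of the arrays. As deposited, where they were chosen, the 85 deviated together by -0.11 to 0.06 on the log2 scale from array to array, with zone 4 replicate 2 lowest, and the rule keeps this range small. That array held the lowest signal of 20 of the 85 and zone 2 replicate 1 of 0. With each array divided by its median the common deviation ran from -0.37 in zone 4 replicate 2 to 0.2 in zone 3 replicate 1, and 24 of the 85 still met the rule, 9 of them named. With quantile normalization 71 did, 20 of them named. Under all 3 scalings 19 probe sets met it, and the named ones were AT5G40810, AT1G65220, AT5G62610, AT4G21105 and AT2G20360. The ratio of AT5G40810 was 1.22 as deposited, 1.29 with quantile normalization and 1.37 with a common median. For GAPC2 the 3 values were 1.42, 1.68 and 1.56, for MPPBETA 1.36, 1.62 and 1.58, and for AT5G08300 1.46, 1.37 and 1.94. Centring the arrays on the 85 in place of the deposited scale left 3757 probe sets that differed between zones by the limma F-test, against 3673, which are 26.9% of those tested.

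**Figure D5:**
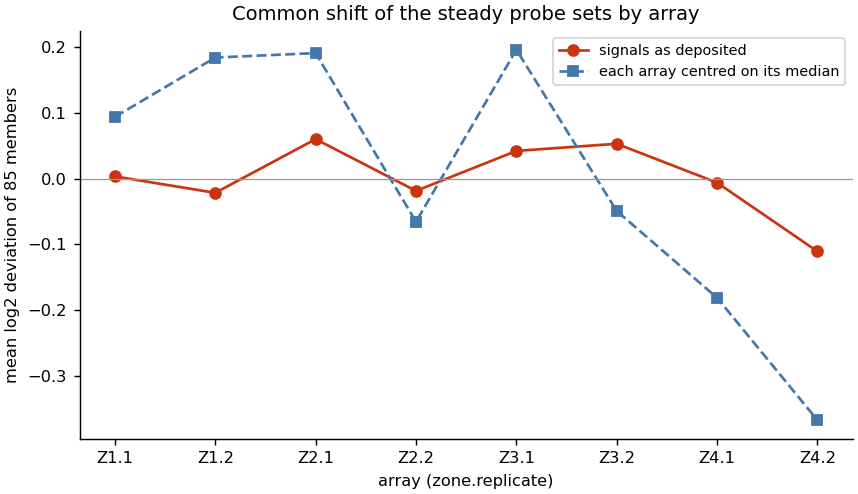
Mean log2 deviation of the 85 steady probe sets from their own means on each of the 8 arrays, written as zone and replicate, with signals as deposited (red circles) and with each array centred on its median (blue squares). The red points stay between -0.11 and 0.06 and the blue ones run from 0.2 down to -0.37, with both zone 4 arrays lowest.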

How the data were processed

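Deposited was 1 linear intensity value for each probe set on each array. The submitters' processing notes name MAS5, and its version was not stated. Per the labels' protocols, total RNA was labelled by a two-cycle amplification. The means of the arrays, with the top and bottom 2% trimmed, differed by less than 1 unit. The members, the lists and the tests were chosen with earlier results of these data known. The rule for naming genes was that all members with 1 gene be named if 40 or fewer had one; 37 reference loci and the marker loci came from textbook use, and the lists of partner genes (6 for respiration and the citric acid cycle, and GAPDH, coatomer and adaptin, nucleobase-ascorbate transporter, DJ-1 and protein phosphatase 2C families) were added once members were known. Name patterns for 16 gene families matched 1 member, GAPC2, because the gene table holds no descriptions, so roles are given as background. Of 22746 probe sets, 64 controls left out, 13513 had 1 gene, 503 several and 8730 none. Where a locus had more than 1 probe set, the brightest stood for it.

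For genes outside the rule, log2 values of the deposited signals were fitted with limma (version 3.58.1, under R 4.3.3), with a mean for every zone, for the 13647 probe sets above the lowest 40% by mean (42.51), with 4 residual degrees of freedom, a trended prior variance, a moderated F-test and Benjamini-Hochberg adjustment over all tested; it was tested on simulated data. Ratios beside genes are highest over lowest array. The number of arrays limits the precision. The labels do not say whether replicate numbers pair the samples, and the main fit treated them as unpaired. Alternatives were other scalings, limits, filters, an offset, other priors, a replicate block and leaving out each array. Tables were handled with pandas 2.3.3 under Python 3.11.15 and drawn with matplotlib 3.10.9.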

Additional observations from a re-analysis of the deposited data

How the results depend on the processing

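The count of steady probe sets followed its settings: 146 with quantile normalization, 38 with arrays scaled to a common median, 54 at a ratio of at most 1.5, 367 at 2, 150 with a mean of at least 500, 43 at 2000 and 459 on zone means, against 85. Leaving out 1 array gave 92 to 150, since fewer arrays must then fall within the limit. Of the 85, 83 to 85 remained, which was fixed in advance. A ratio cannot rise when an array is left out, so a member can leave only by its mean. The limma F-test called 3673 probe sets, 2190 to 3341 with 1 array left out (2190 when zone 3 replicate 1 and 2307 when zone 4 replicate 2 was missing), and at least 1 of the 6 contrasts between zones called 5390 (3822 to 5087 with 1 array left out). With the replicate block the F-test called 3239 and the contrasts 5158. Between zones, the deviations of replicate 1 from the zone means had correlations from -0.19 to 0.04. These show no shared shift by replicate number, but they cannot tell whether the numbers pair the samples. Of the reference genes 1 differed, and 0 did with a prior variance without trend or when zone 1 replicate 1 or either zone 3 array was left out (range 0 to 1 with 1 array left out); the cause was not tested.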

Other observations

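Steadiness was rare at every level of signal. The share of probe sets whose highest array was at most 1.6 times the lowest was 0.051% at means under 50, 2.78% between 100 and 250, 4.23% between 250 and 500, 4.54% between 1000 and 2000, 5.16% between 2000 and 5000, and 3.72% above. A further 322 probe sets met the ratio at means below 1000, among them AT4G34270.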
